A study of Mus musculus with 6 samples.

Results

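The replication-dependent histone genes encode the bulk of the protein around which DNA is wrapped. They were taken as every row of the deposited count table whose symbol begins with Hist1h, Hist2h, Hist3h or Hist4h, which gave 68 of 24421 genes. By symbol, 6 belong to linker histone H1, 18 to H2A, 19 to H2B (with the pseudogene Hist3h2bb-ps), 12 to H3 and 13 to H4. Their reads were counted in cultured endothelial cells, which form the inner lining of blood vessels, derived from mouse brain. Only 7 of the 68 reached a mean of 1 CPM, a count scaled to a common library size, and are called measured here. The most abundant of them, the linker histone gene Hist1h1c, was lower in the knockout-labelled libraries in all 3 same-numbered pairs. It was the only member called in a test that took the pairs into account, and no member was called in the comparison of the groups without pairing.

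Genotype labels divide the 6 libraries into a Fli-1 knockout and a wild-type group, each with 3 libraries numbered 1 to 3. Fli-1 is an ETS family transcription factor of endothelial and blood cells, and deletion of its alleles was induced with 4-OHT, a tamoxifen metabolite that switches on recombinases fused to a hormone-binding domain. RNA was taken after 6 days of growth beside a vascular niche, and the endothelial cells were recovered by fluorescence-activated sorting before polyadenylated RNA was sequenced. The treatment text is the same for every library, so 4-OHT may have been given to both groups. The recombinase and what drives it, the strain, the age and sex of the source animals, the niche cells, and whether the libraries within a group are separate cultures are not given in the labels. The p-values therefore measure the spread between these libraries, which may be technical.

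Total counts ranged from 17550185 to 21385951 per library, so that 1 CPM was worth 17.3 to 21.05 reads. Fli1 itself went against the labels: it stood at 76.8, 111 and 77.4 CPM in the knockout-labelled libraries and at 45.3, 59.6 and 45.8 CPM in the wild-type-labelled ones. Its log2 fold change was 0.81 ± 0.18 (SE; edgeR adjusted p = 0.878, DESeq2 adjusted p = 0.00754), and 0.81 ± 0.051 with the replicate number as a block (edgeR adjusted p = 1.25e-15). The deleted part of the gene is not named, so the gene-level count does not check the deletion. Every direction below is knockout-labelled over wild-type-labelled.

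In a dividing cell, the histone cluster genes are switched on as DNA replication begins and their messenger RNAs are destroyed when it ends. Their transcripts are unusual among those of animal cells in that they normally carry no poly(A) tail. The 3′ end is instead cut a few bases after a short stem-loop, which is bound by the stem-loop binding protein SLBP, and a poly(A) selection step mostly discards such molecules. Some cluster genes also carry a conventional poly(A) signal further downstream, and their polyadenylated forms are known from resting and differentiated cells. Within the nucleosome, H2A, H2B, H3 and H4 form the core, and H1 binds the DNA where it enters and leaves that core.

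The stem-loop sites of the measured members are shown because they mark where the tail-less message would end and how much annotated transcript lies beyond. Sequences were read from GENCODE M21 transcripts (mouse build GRCm38), 5′ to 3′ on the strand of the gene, with the 16-base stem-loop in capitals and up to 5 bases on either side.
Hist1h1c (chr13:23739507-23739532, plus strand): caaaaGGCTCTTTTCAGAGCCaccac
Hist3h2a (chr11:58955167-58955192, plus strand): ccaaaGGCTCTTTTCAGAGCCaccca
Hist1h2be (chr13:23585526-23585551, minus strand): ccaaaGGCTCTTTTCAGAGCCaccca
Hist1h4i (chr13:22040961-22040986, minus strand): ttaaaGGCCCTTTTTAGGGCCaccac
Hist1h4h (chr13:23531453-23531478, plus strand): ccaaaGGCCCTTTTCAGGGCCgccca

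Only annotated transcripts were searched, some as short as 312 bases (Hist1h4k), so a site beyond an annotated end would be missed. The stem-loop was found in 44 of the 68 members. Its most common form, shown for Hist1h1c, was held by 3 H1, 10 H2A, 8 H2B and 5 H3 genes but by no H4 gene, while 7 H4 genes had the form shown for Hist1h4h and 2 that shown for Hist1h4i. Among the measured members it was found in 5 of 7. It was not found in the annotated transcripts of Hist1h2bc and Hist2h2be. The annotated transcript ran on for 840 bases after the stem-loop in Hist1h1c, 1643 in Hist3h2a, 1861 in Hist1h2be, 330 in Hist1h4i and 46 in Hist1h4h. In the 39 of 61 unmeasured members with a stem-loop, this tail had a median of 57 bases.

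The second set shows the annotated 3′ end of the measured members, with the hexamer AATAAA or ATTAAA, the signal read by the polyadenylation machinery, in capitals. It was searched on the strand of the gene in the last 40 bases of each annotated transcript, and at most 30 bases around it are printed.
Hist1h1c (chr13:23740334-23740363, plus strand): atgcttctAATAAAaagcgtttagttttca
Hist3h2a (chr11:58956789-58956818, plus strand): atatgcccAATAAAataagagtacgtgtat
Hist2h2be (chr3:96223709-96223738, plus strand): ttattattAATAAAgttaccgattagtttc
Hist1h2be (chr13:23583670-23583697, minus strand): tgttccttATTAAAgcattcctgattga
Hist1h4i (chr13:22040636-22040664, minus strand): ctgtttacATTAAAagtattctatgctaa
Hist1h4h (chr13:23531480-23531509, plus strand): attttcttATTAAAagagcgaacatgtgtt

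Such a hexamer was present in 6 of the 7 measured members. The exception was Hist1h2bc, whose single annotated transcript has 2 exons and ends without one. Among the members not measured, 11 of 61 had it. The median longest transcript was 1560 bases in the measured members and 528 bases in the others. These shares describe the annotation, and a signal at an annotated end did not always go with many counted reads. The 11 genes that had it without being measured held between 0 and 24 reads in total, with a median of 3. Hist1h2br, Hist1h2bq and Hist2h3c1 had such a signal and long annotated transcripts, and each had 0 reads. Only 11.3%, 2.68% and 0% of their 50-base stretches occurred in no other annotated gene, so their reads may have gone uncounted. That share was 100% for Hist1h1t, with 0 reads, and 99.0% for Hist2h4, with 7 reads.

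**Figure D1:**
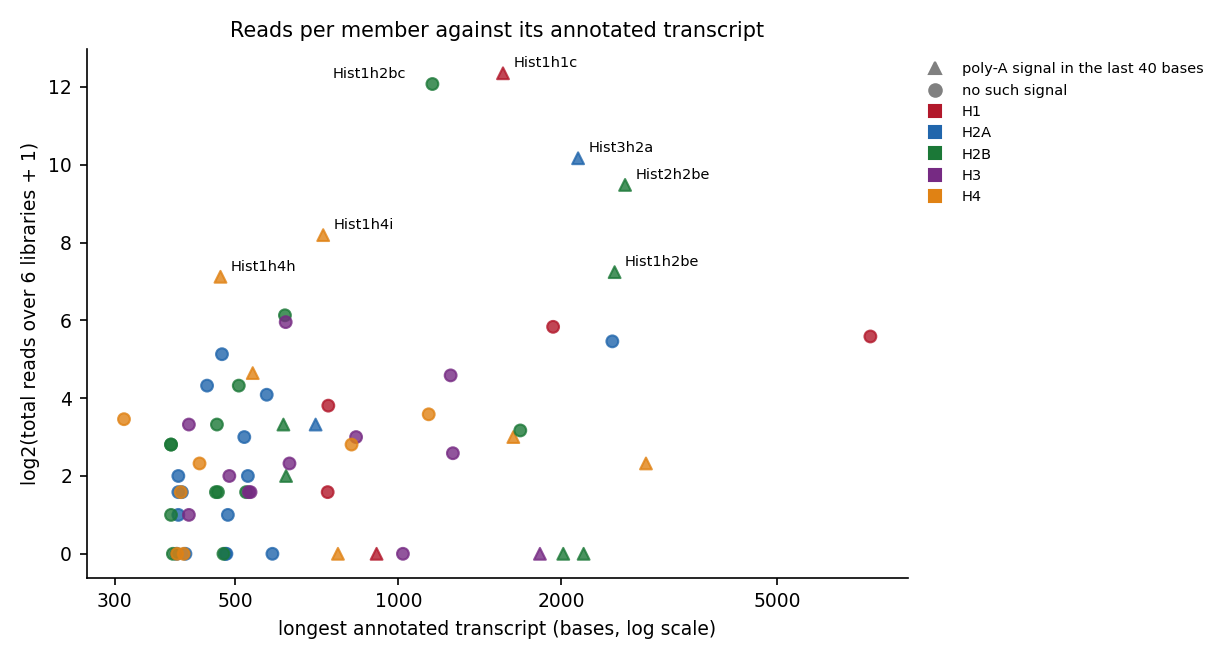
Total reads of each of the 68 histone cluster genes over the 6 libraries, as log2(reads + 1), against its longest annotated transcript in bases on a log scale, with colour for the histone type and triangles for members with a poly(A) signal in the last 40 bases. Of the 7 labelled, measured members, 6 are triangles, and the triangles at the bottom right are members with a signal and few or 0 reads.

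The whole family held 12540 reads over the 6 libraries. Of these, 95.4% belonged to the 7 measured members. No read was counted for 15 members in any library, 33 members had 1 to 10 reads in all, and 20 had 11 or more. H1 and H2B supplied 42.5% and 42.3% of the family's reads, H2A 10.3%, H4 3.96% and H3 0.933%. By genomic cluster, 5 of 54 Hist1 genes (chromosome 13), 1 of 10 Hist2 genes (chromosome 3), 1 of 3 Hist3 genes (chromosome 11) and 0 of 1 Hist4 gene (chromosome 6) were measured. The numbers by type were 1 of 6 for H1, 1 of 18 for H2A, 3 of 19 for H2B, 0 of 12 for H3 and 2 of 13 for H4.

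**Figure D2:**
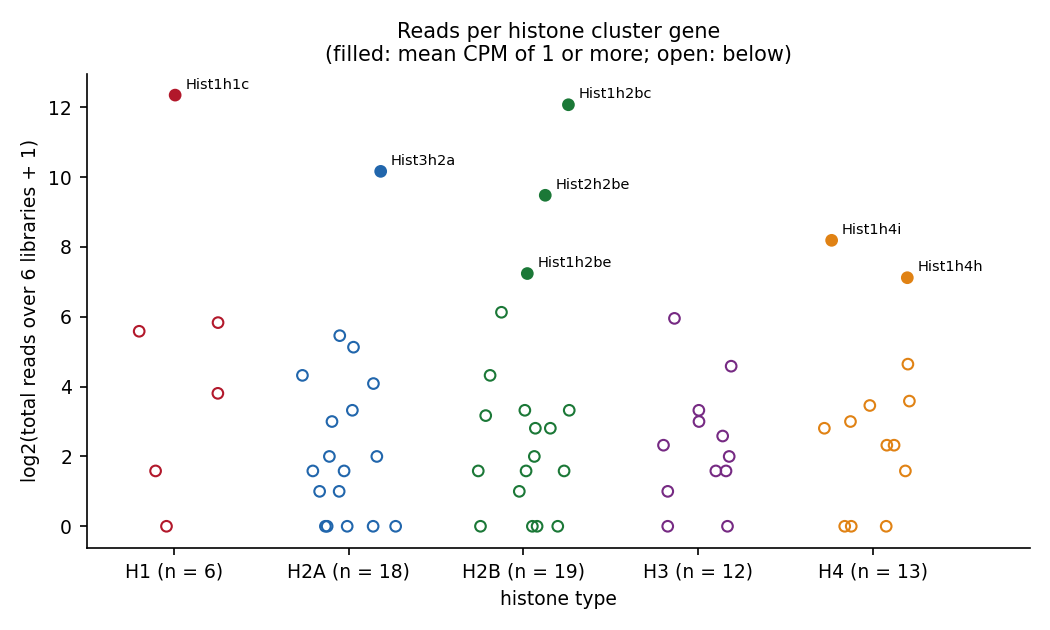
Total reads of each histone cluster gene over the 6 libraries, as log2(reads + 1), by histone type. The 7 filled and labelled points are the members with a mean of 1 CPM or more, and all H3 genes are open.

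Similar sequence limits what a low count means. How reads that map to several places were treated is not given in the sources used here. Between 54.2% and 100% of the 50-base stretches of the measured members occurred in no other annotated gene, with a median of 71.1%. The median in the other members was 42.0%, and 5 members, among them Hist2h3b and Hist2h2aa2, had no such stretch at all. The search covered both strands, and genes overlapping at the same place counted as other genes. Each of the 5 is covered over its whole length by exons of such a gene, Hist2h3b over 488 and Hist2h2aa2 over 528 bases. These shares therefore do not separate a similar copy elsewhere from an overlap in place. Hist2h2be was at 100%, Hist1h1c at 91.5% and Hist1h4h at 54.2%. A member whose sequence is shared may therefore be listed at 0 while it is transcribed, and counts of near-identical copies are uncertain. A count of 0 in a library allowed up to 0.143 to 0.174 CPM by counting error alone, taken as 3 reads.

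H2A and H2B genes often lie head to head and share the stretch between their starts. In the annotation, 13 such divergent H2A and H2B pairs started within 1000 bases of each other, at distances of 173 to 306 bases. One further pair joined the H2B gene Hist1h2bh and the H3 gene Hist1h3f, 660 bases apart. Reads within a pair were unequal wherever 1 gene was measured. Hist1h2bc had 4307 reads and its partner Hist1h2ac, 251 bases away, had 43. Hist3h2a had 1147 reads and Hist3h2bb-ps, which is annotated as a pseudogene, had 2. Hist2h2be had 713 reads and Hist2h2ac had 7. The libraries were made with a stranded or a non-stranded kit, and which library had which is not given, so reads of genes that overlap on opposite strands could not be separated.

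Per kilobase of annotated exon, the order of levels differed from that in CPM. Hist1h2bc had a mean of 31.4 RPKM (CPM divided by exon length in kilobases; range over libraries 28.6 to 34.5), and Hist1h1c had 28.1 RPKM (18.6 to 39.6), so these neighbours in the order overlapped. Hist3h2a followed at 4.50 RPKM (3.69 to 5.395), and its range overlapped that of Hist1h4i at 3.38 RPKM (2.62 to 4.35). Hist1h4h at 2.47 RPKM (1.603 to 3.47) and Hist2h2be at 2.30 RPKM (1.94 to 2.80) also overlapped. Hist1h2be stood below all of these at 0.284 RPKM (0.235 to 0.356). These levels depend on the annotated length, which for Hist1h2be is 4446 bases of exon over 3 transcripts and includes 496 bases shared with Hist1h1e on the same strand. Hist3h2a shares 708 bases with Trim17 on the same strand, a gene with 9 to 16 reads per library.

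In the comparison of the groups, edgeR's quasi-likelihood test called 0 of the 10 members that passed the filter on low counts, at a false discovery rate (FDR) of 0.05. Across all 12753 genes tested, 0% were called higher and 0.00784% lower. At an unadjusted p under 0.05 there was 1 member, against 4.79% of all genes, and DESeq2 and limma-voom each called 0 members and also had 1 at an unadjusted p under 0.05. Same-numbered libraries deviated together from their group means, so the number was also fitted as a block. With the block, edgeR called 1 member in either direction, where 8.81% of all genes were called. That member was lower, as were 4.01% of all genes, and 0 members were higher, where 4.81% of all genes were. Higher calls were 54.5% of all calls, and 39.1% with scaling by library size only. The share of members, 1 of 10, rests on a single gene. With the block 3 members had an unadjusted p under 0.05. The share of all genes at that level with the block was not counted, and the 4.79% belongs to the group comparison. The 10 tested members had a median log2 fold change of -0.18 with the block, and all genes tested had -0.0033. The members below were described by role, beginning with the linker histone.

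Hist1h1c encodes the linker histone H1.2 (ENSMUSG00000036181, GRCm38 chromosome 13, 23738808 to 23740367, plus strand, a single exon). It measured 39.4, 29.1 and 40.6 CPM in the knockout-labelled libraries 1, 2 and 3, and 48.2, 43.8 and 61.7 CPM in the wild-type-labelled libraries 1, 2 and 3. The groups did not overlap, and the wild-type library 3 was the highest of all. The means were 36.4 ± 6.34 and 51.2 ± 9.32 CPM (SD, n = 3 each). Within pairs the log2 ratios were -0.29, -0.59 and -0.60, and the exact 95% intervals for counting error were -0.42 to -0.16, -0.75 to -0.44 and -0.74 to -0.47, each below 0. The log2 fold change was -0.49 ± 0.17 (SE) in the group comparison (edgeR adjusted p = 0.976, unadjusted p = 0.0279) and -0.49 ± 0.061 with the block (edgeR adjusted p = 1.39e-07). In bulk RNA, fewer cells holding the transcript and less transcript per cell cannot be told apart. Leaving out either pair 1, 2 or 3 kept the call with the block, at log2 fold changes of -0.43 to -0.60. Leaving out any 1 library of the group comparison gave -0.34 to -0.60 and no call.

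Because it was the only member called, the stretch before the annotated start of Hist1h1c is shown. It is from RefSeq (GRCm38.p6, chr13:23738557-23738806, plus strand), 250 bases long and printed 5′ to 3′. Capitals mark the CCAAT box, which is bound by the factor NF-Y, and the AAACACA box, an element described in H1 promoters that was added to the search after the values were seen.
Hist1h1c: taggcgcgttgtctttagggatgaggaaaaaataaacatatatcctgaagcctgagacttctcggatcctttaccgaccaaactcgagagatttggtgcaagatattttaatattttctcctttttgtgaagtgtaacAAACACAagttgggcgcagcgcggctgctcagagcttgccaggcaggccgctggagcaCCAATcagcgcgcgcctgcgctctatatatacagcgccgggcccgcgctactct

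Motifs were searched on both strands in the 300 bases around the start, of which 250 lie before it, and no motif searched is contained in another. Of the 68 members, 67 matched a RefSeq gene and 61 had a promoter in the table, while Hist1h2bc had none. CCAAT occurred in 85.2% of the 61, against 41.1% of the 27025 promoters of the table. By type, it was in all 6 H1, 17 H2A, 16 H2B and 10 H3 promoters and in 3 of 12 H4 promoters. TATAAA occurred in 57.4% of members and 15.7% of all promoters. The octamer ATTTGCAT, the site of OCT-1, occurred in 23.0% of members and 1.97% of all, and only in H2A (7 of 17) and H2B (7 of 16) promoters. Promoters of head-to-head pairs overlap, so 1 match can be counted for both genes. Hist1h2ae and Hist1h2bg, whose starts lie 176 bases apart, both had the octamer. AAACACA was in 5 of 6 H1 promoters, 2 of 17 H2A, 2 of 16 H2B and none of the 10 H3 or 12 H4 promoters, against 8.22% of all. An E2F site, searched as TTTGGCGC or TTTCCCGC, was in 1.64% of members and 1.80% of all. These are matches of letters and do not show binding.

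The other H1 genes were near the floor. Hist1h1d, the linker histone H1.3 gene, was tested but not measured: it had 0.523, 0.642 and 0.116 CPM in the knockout-labelled libraries and 0.334, 0.238 and 0.510 CPM in the wild-type-labelled ones. The groups overlapped, and the log2 fold change with the block was 0.27 ± 0.52 (SE; edgeR adjusted p = 0.833), on 47 reads in all. Its sign turned to -0.33 without pair 2 with the block.

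Among the H2A genes, Hist3h2a (chromosome 11, 58954685 to 58956830, plus strand), whose stem-loop and poly(A) signal are printed above, was the only measured one. It stood at 9.23, 7.91 and 9.21 CPM in the knockout-labelled libraries and 10.2, 9.79 and 11.6 CPM in the wild-type-labelled ones. All 3 libraries labelled knockout were below all 3 labelled wild-type. The log2 ratios within pairs were -0.14, -0.31 and -0.33, of which only that of pair 3 had a counting interval below 0. The log2 fold change was -0.26 ± 0.12 (SE; edgeR adjusted p = 0.996) in the group comparison and -0.26 ± 0.11 with the block (edgeR adjusted p = 0.141). It therefore missed the threshold in both tests.

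Among the H2B genes, Hist1h2bc (chromosome 13, 23684199 to 23692908, plus strand, 2 exons) was the only one whose level per kilobase overlapped that of Hist1h1c. It had 33.1, 34.1 and 36.9 CPM in the knockout-labelled libraries and 37.9, 36.2 and 39.9 CPM in the wild-type-labelled ones. The highest knockout library lay above the lowest wild-type library, so the groups overlapped, although each pair was lower, at log2 ratios of -0.19, -0.09 and -0.12. With the block its log2 fold change was -0.13 ± 0.061 (SE; edgeR adjusted p = 0.192). At a mean of 36.3 CPM it varied less between libraries than Hist1h1c: the SD was 1.96 CPM in the knockout group and 1.85 CPM in the wild-type group.

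Hist2h2be (chromosome 3, 96221119 to 96223738, plus strand), another H2B gene, showed no common direction. Its values were 6.42, 5.08 and 6.66 CPM in the knockout-labelled libraries and 5.20, 5.46 and 7.35 CPM in the wild-type-labelled ones. The groups overlapped, and pair 1 was higher while pairs 2 and 3 were lower. The log2 fold change with the block was 0.02 ± 0.13 (SE; edgeR adjusted p = 0.951), and its sign turned when libraries were scaled by their size only. Hist1h2be (chromosome 13, 23583670 to 23621124, minus strand) had 1.05, 1.39 and 1.04 CPM against 1.15, 1.38 and 1.58 CPM. These ranges overlapped as well, and the log2 fold change with the block was -0.23 ± 0.28 (SE; edgeR adjusted p = 0.71). Hist1h2bg, just below the level called measured at a mean of 0.571 CPM, had 0.523, 0.481 and 0.290 CPM against 0.811, 0.808 and 0.510 CPM. All 3 of its pairs were lower on 69 reads in all, the groups overlapped, and the test with the block gave -0.71 ± 0.41 (SE; edgeR adjusted p = 0.338).

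No H3 gene was measured. The 12 genes held 117 reads together, and Hist1h3b, the second member just below a mean of 1 CPM (0.528), held 61 of them. Its values were 0.0476, 0.695 and 0.811 CPM in the knockout-labelled libraries and 0.239, 0.713 and 0.663 CPM in the wild-type-labelled ones. The lowest knockout and the lowest wild-type library were both number 1. The groups overlapped, and the log2 fold change with the block was -0.10 ± 0.44 (SE; edgeR adjusted p = 0.934), which turned to 0.12 without pair 1.

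Both measured H4 genes were low. Hist1h4i (chromosome 13, 22040636 to 22041362, minus strand) had 1.90, 1.98 and 2.67 CPM in the knockout-labelled libraries and 2.39, 2.66 and 3.16 CPM in the wild-type-labelled ones. Each pair was lower, at log2 ratios of -0.33, -0.43 and -0.25, but the groups overlapped and each counting interval included 0. The log2 fold change with the block was -0.33 ± 0.20 (SE; edgeR adjusted p = 0.371). Hist1h4h (chromosome 13, 23531050 to 23531519, plus strand), just above the level called measured, had 1.05, 1.497 and 0.753 CPM against 0.955, 1.09 and 1.63 CPM. Its pairs went apart, with 2 higher and pair 3 lower by a log2 ratio of -1.12. The log2 fold change with the block was -0.13 ± 0.31 (SE; edgeR adjusted p = 0.864) and turned to 0.30 without pair 3.

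**Figure D3:**
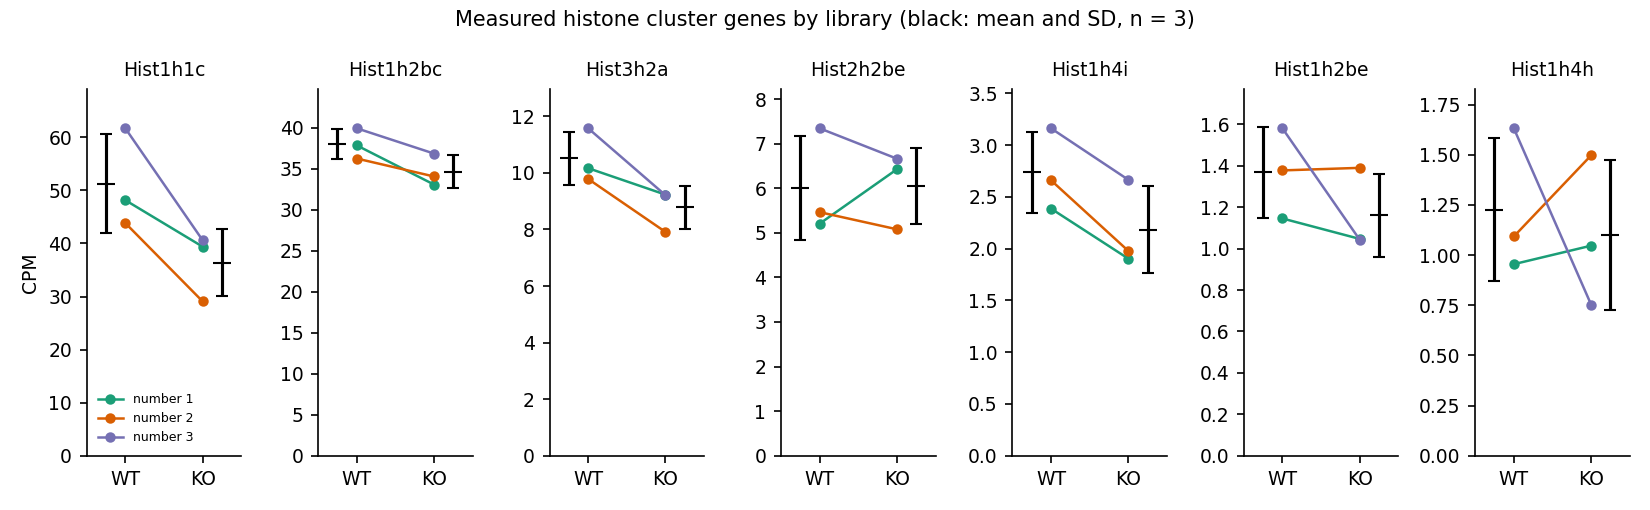
CPM of the 7 measured histone cluster genes in each library, with lines joining libraries of the same number and black marks for the mean and SD (n = 3). The lines of Hist1h1c, Hist1h2bc, Hist3h2a and Hist1h4i all descend from WT to KO, and those of Hist2h2be, Hist1h2be and Hist1h4h run in mixed directions; each panel has its own axis, starting at 0.

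Of the 7 measured members, 4 were lower in all 3 pairs, 0 were higher in all 3 and 3 were mixed. Over all genes tested, 20.2% were lower and 20.5% higher in all 3 pairs. For 2 of the 7 the groups did not overlap, both being lower in the knockout-labelled libraries, while the groups did not overlap for 10.2% of all genes and were lower in that way for 4.96%. Members were taken by symbol and not by these values, but earlier results of these data were known when the family was chosen. The 7 genes are few and some share sequence, and no test was made over the list.

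Summed by type over all members, measured or not, H1 stood at 40.5, 30.3 and 41.5 CPM in the knockout-labelled libraries and 49.0, 44.5 and 63.0 CPM in the wild-type-labelled ones. H1 groups did not overlap, with a mean log2 ratio over the pairs of -0.48 ± 0.18 (SD, n = 3). Hist1h1c supplied 97.8% of the H1 reads, and the sum of the other 5 genes had a mean ratio of 0.28 ± 0.74 (SD). H2A stood at 10.4, 8.82 and 10.02 CPM against 11.03, 11.5 and 13.2 CPM, without overlap, at a mean log2 ratio of -0.29 ± 0.17 (SD). H2B stood at 41.3, 41.7 and 45.7 CPM against 45.5, 44.8 and 49.7 CPM, with overlap, at -0.12 ± 0.019 (SD). H4 stood at 3.47, 4.12 and 4.17 CPM against 3.72, 4.32 and 5.41 CPM, with overlap, at -0.18 ± 0.17 (SD). H3, on its 117 reads, overlapped too, at -0.42 ± 0.43 (SD). Each type sum was lower in each pair, but only the H1 sum had its counting interval below 0 in every pair. Intervals included 0 in pair 1 for H2A, in pairs 2 and 3 for H2B, and in every pair for H3 and H4. Except for H3, no type kept one direction over the pairs without its most abundant gene. Without Hist1h4i the H4 ratios were 0.23, 0.36 and -0.58, a mean of 0.0069 with no common direction. Without Hist3h2a the H2A ratios were 0.41, -0.91 and -0.96, a mean of -0.49, and without Hist1h2bc the H2B ratios were 0.10, -0.16 and -0.15, a mean of -0.072.

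The whole family summed to 95.9, 86.3 and 102 CPM in the knockout-labelled libraries and 110, 107 and 133 CPM in the wild-type-labelled ones. The log2 ratios were -0.19, -0.30 and -0.37 in pairs 1, 2 and 3. Without Hist1h1c they were -0.12, -0.13 and -0.20, so each pair was closer to 0 but still lower. Of the 7325 reads left in that sum, 4307 belonged to Hist1h2bc. The 61 members not measured summed to log2 ratios of -0.022, -0.19 and -0.31, and each counting interval included 0. With 3 pairs, the smallest two-sided p of an exact test is 0.25, and none is given for the sums.

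**Figure D4:**
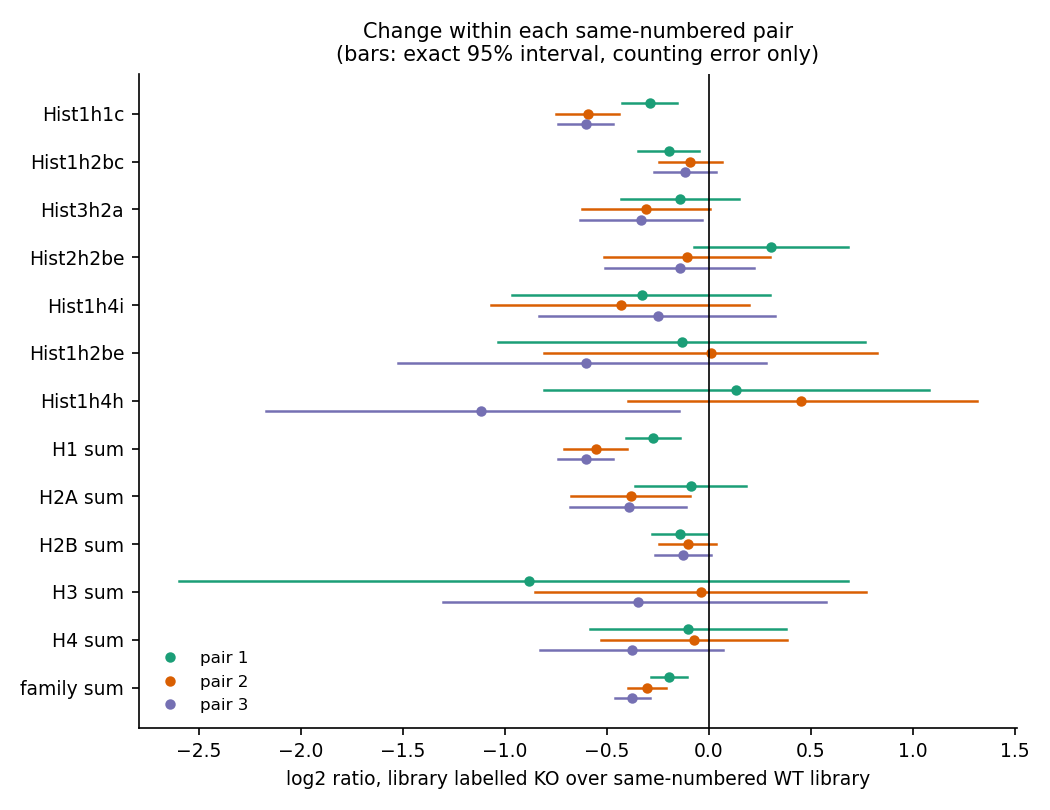
Log2 ratio of each library labelled knockout to the wild-type library of the same number, for the 7 measured members, the sum of each histone type over all its members, and the family sum; bars are exact 95% intervals that cover counting error only. The 3 points of Hist1h1c, of the H1 sum and of the family sum lie below 0 with their bars, and the bars of the low genes are wide.

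The genes that make, package and replace these histones were set beside them. Of the list for histone gene transcription and 3′ processing, which holds Npat, Slbp and the U7 particle's Lsm10 and Lsm11, 0 of 16 tested were called in either direction with the block, at a median log2 fold change of 0.04. Its smallest p-values belonged to Nelfe, a subunit of the negative elongation factor (0.16 ± 0.066 SE, edgeR adjusted p = 0.126), and Srrt, a cap-complex protein (-0.09 ± 0.043 SE, edgeR adjusted p = 0.246, and 0.0476 without pair 1). Of the histone mRNA decay list, 0 of 9 were called, with a median of 0.06. Eri1, the nuclease that trims the stem-loop end, stood at 0.14 ± 0.070 (SE; edgeR adjusted p = 0.246), and Exosc10, an exosome nuclease, at 0.10 ± 0.048 (SE; edgeR adjusted p = 0.214). The polyadenylation machinery also had 0 of 14 called, with a median of -0.03. Cstf1, a cleavage stimulation subunit, stood at 0.16 ± 0.065 (SE; edgeR adjusted p = 0.126) and Pabpc1, the cytoplasmic poly(A)-binding protein, at 0.10 ± 0.040 (SE; edgeR adjusted p = 0.113). Without the block these 3 lists had 0 members at an unadjusted p under 0.05.

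Of the histone chaperones, the proteins that carry new histones to DNA, 10 of 25 were called higher and 0 lower with the block. Over all genes tested, 4.81% were called higher and 4.01% lower. The median log2 fold change of the chaperones was 0.13. Asf1b, an H3-H4 chaperone, averaged 8.21 ± 3.08 CPM in the knockout-labelled libraries and 4.59 ± 1.10 CPM in the wild-type-labelled ones (SD, n = 3), a change of 0.82 ± 0.13 (SE; edgeR adjusted p = 1.35e-05). Chaf1a, the large subunit of chromatin assembly factor 1, rose by 0.49 ± 0.079 (SE; edgeR adjusted p = 1.87e-05). The chaperone count was 4 with DESeq2 and the block, and 6 without pair 2.

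The replication-independent variants are encoded outside the clusters, most of them by ordinary polyadenylated messages. Their transcript ends were not searched here, so how far each count, such as that of H2afx, depends on its 3′ end is not known. Of 11 tested, 2 were called higher and 1 lower with the block, where 4.81% and 4.01% of all genes tested were. Cenpa, the centromeric H3 variant, rose by 0.81 ± 0.12 (SE; edgeR adjusted p = 1.81e-06), and H2afz, which encodes H2A.Z, rose by 0.26 ± 0.052 (SE; edgeR adjusted p = 0.000513). H2afj, named after its value was seen, was lower by a log2 fold change of -0.33 ± 0.093 (SE, edgeR adjusted p = 0.029), a call lost with DESeq2 and without pair 2. Its log2 ratios in pairs 1, 2 and 3 were 0.063, -0.58 and -0.44, and the groups overlapped. Among the 3 most abundant variants, H3f3b, an H3.3 gene, averaged 296 ± 11.6 CPM in the knockout-labelled libraries and 319 ± 14.0 CPM in the wild-type-labelled ones (SD, n = 3; edgeR adjusted p = 0.1 with the block, and 0.0293 with scaling by library size only). H1f0, the linker histone H1.0 gene of resting cells, averaged 158 ± 6.32 and 149 ± 3.15 CPM (edgeR adjusted p = 0.214 with the block). H2afy, the macroH2A1 gene, averaged 117 ± 2.94 and 113 ± 4.42 CPM (edgeR adjusted p = 0.599 with the block). H1f0 was higher in all 3 pairs and Hist1h1c lower in all 3, and the difference between these changes was not tested.

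Of the S phase and replication list, 23 of 28 genes were called higher and 0 lower with the block, at a median log2 fold change of 0.54. The shares over all genes tested were 4.81% higher and 4.01% lower. Ccna2, which encodes cyclin A2, rose by 0.82 ± 0.070 (SE; edgeR adjusted p = 8.64e-12) and Mcm5, a subunit of the replicative helicase, by 0.78 ± 0.062 (SE; edgeR adjusted p = 1.62e-12). Of the G2 and mitosis list, 16 of 16 were called higher, at a median of 0.89, among them Mki67 (0.95 ± 0.056 SE, edgeR adjusted p = 1.2e-16) and Top2a (0.88 ± 0.051 SE, edgeR adjusted p = 1.2e-16). The S phase count was 15 with DESeq2 and the block. Without the block edgeR called 0 genes of the chaperone, variant, S phase and mitosis lists. At an unadjusted p under 0.05 those lists had 9, 1, 15 and 15 genes, against 4.79% of all genes tested. Among the genes named here, DESeq2 without the block called Mki67 and Top2a (DESeq2 adjusted p = 0.0135 and 0.0124). The medians of the S phase list and of the 10 tested histone cluster genes, 0.54 and -0.18, had opposite signs, and their difference was not tested.

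**Figure D5:**
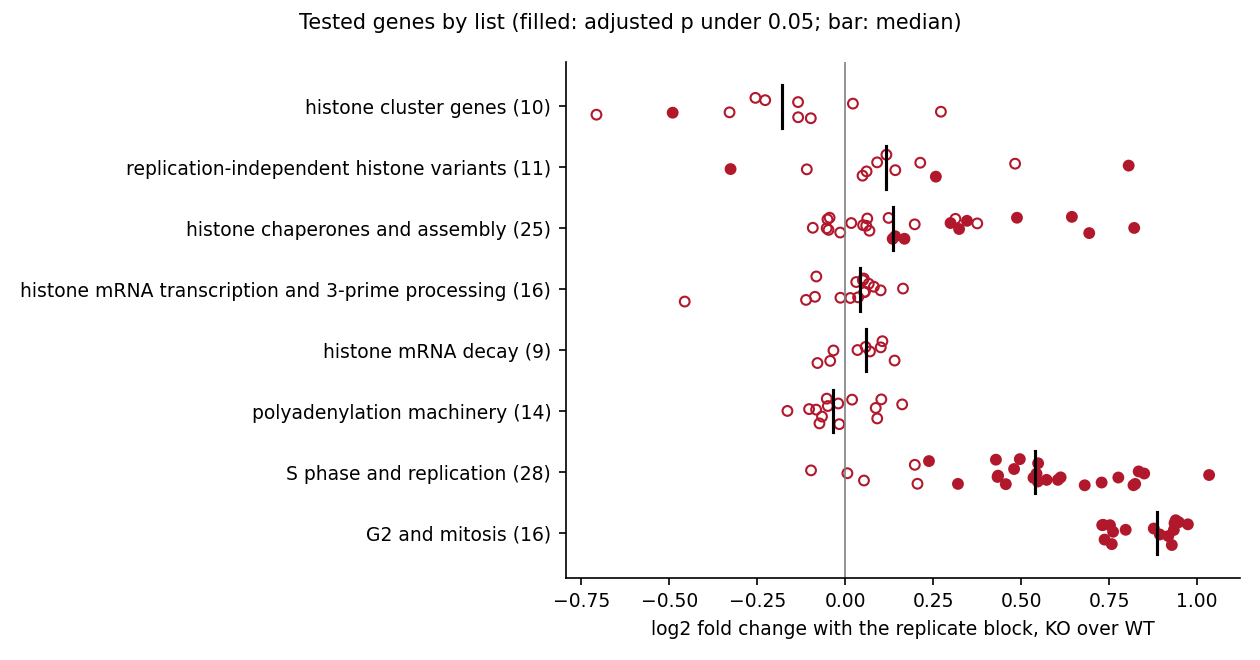
Log2 fold change with the replicate block for each tested gene, by list, with the number of genes in brackets, filled points for an adjusted p under 0.05 and a bar at the median. The 10 histone cluster genes have a median of -0.18 with 1 filled point below 0, and the mitosis and S phase genes lie mostly above 0 with medians of 0.89 and 0.54.

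The labelled cell type was checked on 12 endothelial genes, which summed to 15314 to 17174 CPM in the knockout-labelled libraries and 15048 to 16213 CPM in the wild-type-labelled ones. Of these, Emcn and Tek were called higher and Robo4 lower with the block. For this and the next lists, the shares over all genes tested were 4.81% higher and 4.01% lower. Fibroblast markers summed to 139.8, 1016 and 465 CPM in the knockout-labelled libraries and 179, 1404 and 491 CPM in the wild-type-labelled ones, highest in both libraries numbered 2. Of 7 tested, Col1a1 and Col3a1 were called lower and Dcn higher. Mural cell markers summed to 1437 to 1878 and 1418 to 2229 CPM, and 3 of 9, Cspg4, Notch3 and Pdgfrb, were called lower. Of 12 haematopoietic markers, 5 were at 0 in every library (Tyrobp, Rac2, Cd3e, Hba-a1 and Hbb-bt), and of the 2 tested Laptm5 was called higher; the list summed to 113 to 228 and 82.5 to 191 CPM. Markers of astrocytes, neurons and oligodendrocytes summed to 15.4 to 24.9 and 12.0 to 35.2 CPM, 0 of 3 tested were called, and Aqp4 was at 0. With DESeq2 and the block the calls were 1 higher and 1 lower for the endothelial, 0 for the fibroblast and 1 lower for the mural list. Without the block edgeR called 0 genes in each of these 5 lists, and 0 of them had an unadjusted p under 0.05. Genes of these lists were named after their values were seen. Hist1h1c was lowest in both groups in the libraries numbered 2, where the fibroblast sum was highest. Between numbers 1 and 3 of each group, however, both the fibroblast sum and Hist1h1c were higher in number 3. Hist1h1c stood there at 39.4 and 40.6 CPM in the knockout-labelled libraries and at 48.2 and 61.7 CPM in the wild-type-labelled ones. The part of fibroblasts in the level of Hist1h1c was not tested.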

How the data were processed

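The authors deposited 1 table of raw read counts per gene symbol for the 6 libraries, without normalisation. The submitters' processing notes list STAR 2.6.1d, Subread 1.6.4, featureCounts, Trim Galore 0.6.4 and FastQC 0.11.8, and mm10 and GRCm38 as builds. Which annotation and strand setting were used, and how multi-mapping reads were treated, is not given in the sources used here.

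The deposited counts were tested in edgeR 4.0.16 (R 4.3.3): filterByExpr (12753 genes kept), TMM scaling (factors 0.983 to 1.02), and robust quasi-likelihood F tests, with p-values adjusted by Benjamini-Hochberg over all genes tested (FDR 0.05). DESeq2 1.42.0 and limma 3.58.1 (voom) served as alternatives. The fits were also run on counts simulated with the replicate block, which cannot show whether the numbers mark true pairs. Every 2 libraries differed by more than sampling noise, with a chi-square of 5.68 to 42.8 per degree of freedom.

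The groups share replicate numbers, which the labels do not explain. Deviations from group means correlated at 0.776, 0.857 and 0.652 between same-numbered libraries and at -0.68 to 0.068 between others. The numbers were therefore treated as pairs, on the data alone, in a second fit with the number as a block. Its biological coefficient of variation was 0.0383, against 0.189, with 2 residual degrees of freedom against 4.

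Transcripts came from GENCODE M21 and promoters from RefSeq (GRCm38.p6). RPKM is CPM per kilobase of the union of annotated exons. Intervals of pair ratios are exact binomial (Clopper-Pearson) at 95% and, like the floor of 3 reads, cover counting error only. Genes were named by rule: Fli1, up to 4 measured members of each type, every called member, the 2 members on either side of 1 CPM, and the 2 smallest p-values of each gene list (for variants also the 3 most abundant). The members and lists were chosen with earlier results of these data known.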

Additional observations from a re-analysis of the deposited data

How the results depend on the processing

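The number of members called lower was 1 with the replicate block and 0 with no replicate block. With the block that member was Hist1h1c in every scaling, filter, tool and left-out pair tried, at adjusted p-values of 2.96e-15 to 4.39e-05. Outside the block it was called in no setting. The mean log2 ratio of the type sums moved without the most abundant member to 0.28 for H1, -0.49 for H2A, -0.072 for H2B, 0.0069 for H4 and -0.15 for the family, and the H2B sum moved to -0.15 with scaling by library size only. Signs turned only for members that were not called. In the group comparison, leaving out 1 library gave -0.12 to 0.69 for Hist1h1d, -0.080 to 0.18 for Hist2h2be, -0.55 to 0.48 for Hist1h3b and -0.44 to 0.10 for Hist1h4h. With the block, leaving out 1 pair gave -0.33 to 1.01 for Hist1h1d, -0.13 to 0.11 for Hist2h2be, -0.40 to 0.12 for Hist1h3b and -0.48 to 0.30 for Hist1h4h. Scaling by library size only gave Hist2h2be -0.014 without and -0.0049 with the block. The cause was not tested. The number of measured members was 9 at a mean of 0.5 CPM and 5 at 2 CPM. None of the 61 other members averaged over 0.571 CPM. The parts of depth, poly(A) selection and shared sequence in these low counts were not tested. With no replicate block, edgeR called 0 genes in any gene list.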
